A study of Mus musculus with 34 samples.

Results

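In 6 groups of mouse liver, 10 genes of the endoplasmic reticulum (ER) whose products make, rearrange or break protein disulfide bonds were followed: P4hb, Pdia3, Pdia4, Pdia5, Pdia6 and Txndc5, which encode soluble protein disulfide isomerases, Dnajc10 and Txndc11, which encode thioredoxin-like reductases linked to ER-associated degradation, and the oxidases Ero1l and Ero1lb. They were taken by symbol from both expression tables, and these 10 of the 55487 gene identifiers per table were present in each. All 10 passed the filter on low values (more than 1 CPM, read counts scaled to library size, in 5 or more libraries of one table and in 6 or more of the other). No measured value was used to choose them for this description, although earlier results of the same data were known.

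Disulfide isomerases carry thioredoxin-like domains whose paired cysteines pass a disulfide to a folding client, and the ERO1 oxidases recharge those cysteines with oxidising equivalents from molecular oxygen. Hepatocytes secrete most plasma proteins, many of them disulfide-bonded, so these enzymes are abundant in liver. When unfolded proteins accumulate in the ER, the sensors IRE1, PERK and ATF6 are known to raise transcription of chaperones and many of these enzymes, which is called the unfolded protein response.

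The 34 livers came from male mice aged 3 months that received an intraperitoneal injection, and polyA RNA was sequenced. The first table (labelled batch1) held wild-type (WT) mice given PBS (n = 6), WT mice given the cytokine TNFa for 2 hours (n = 6), PiZ mice given PBS (n = 5) and PiZ p50-KO mice given PBS (n = 5). PiZ is a line known to carry the human Z form of alpha-1 antitrypsin, a secreted serpin that polymerises in the ER, as a transgene; the labels give only the name. The p50-KO allele is labelled as lacking p50, the NF-kB subunit encoded by Nfkb1, in the PiZ background, and no p50-KO liver without PiZ was analysed here. The second table (batch2) held WT mice given DMSO (n = 6) or tunicamycin for 24 hours (n = 6), which inhibits the first step in making the lipid-linked sugar precursor of N-glycans. The interval after PBS is not stated, batch and table coincide, and levels were therefore compared only within a table. The labels do not say that each library is a separate mouse, so p-values measure the spread between these libraries.

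Depth was 35.5 to 54.0 M counted reads per library in the first table and 34.3 to 47.8 M in the second, with one exception. The library WT PBS 2 held 10.2 M reads, and protein-coding genes took 72.2% of them, where the other 21 libraries gave 97.3% to 97.8%, and it listed 32360 genes above 1 CPM against 11683 to 13202. Among the 10 genes, 7 lay below all other WT PBS libraries in WT PBS 2 (Pdia6 at 3.19 log2 CPM, Ero1lb at 2.48), Dnajc10 (6.25) and Txndc11 (5.75) lay above them, and Ero1l (4.16) lay among them. It is stated apart here: means and tests leave it out (WT PBS n = 5), and counts with it are given beside. Nfkb1, the targeted gene, was at 3.31, 3.74 and 3.37 log2 CPM in PiZ p50-KO 3 to 5, against 4.62 to 5.58 in PiZ. It was at 4.51 and 4.86 in the libraries labelled PiZ p50-KO 1 and 2, of which library 2 lay inside the PiZ range. Both of these libraries also lay above the WT PBS libraries other than WT PBS 2 (3.92 to 4.34), whereas PiZ p50-KO 3 to 5 lay below them. The part of Nfkb1 that the allele removes is not given in the sources used here. On the first principal component of all tested genes (44.7% of the variance), the libraries labelled PiZ p50-KO 1 and 2 stood at -23.2 and -19.7, between the WT libraries and PiZ p50-KO 3 to 5 (18.3 to 51.4). WT TNFa 4 (Nfkb1 at 4.77 against 6.57 to 6.95 in the other 5) and WT DMSO 2 (second component at -89.7 against 17.9 to 24.1) also stood apart. Hepatocyte markers such as Alb and Apoa1 summed to 60191 to 113833 CPM in the 21 libraries.

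In the GRCm38 annotation (GENCODE M21), the isomerase genes are P4hb (chr11:120560298-120573253, minus strand), Pdia3 (chr2:121413775-121438687, plus), Pdia4 (chr6:47796141-47813430, minus), Pdia5 (chr16:35397312-35490873, minus), Pdia6 (chr12:17266545-17284770, plus) and Txndc5 (chr13:38500079-38528824, minus). The reductase genes are Txndc11 (chr16:11074911-11134650, minus) and Dnajc10 (chr2:80315466-80354043, plus), and the oxidases are Ero1l (chr14:45283087-45318771, minus; Ero1a in RefSeq) and Ero1lb (chr13:12565874-12611396, plus; Ero1b in RefSeq). Each row of the tables is one gene, with no value per isoform. Catsper2 overlaps Pdia3, Atp6v1c2 overlaps Pdia6, Bmp6 overlaps Txndc5 and Snn overlaps Txndc11, and use of strand in counting is not given in the sources used here, so reads of such pairs may not be separable.

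Promoters are shown for 4 genes: Pdia6 and Ero1lb, which hold the ER stress element described here, and Pdia4 and Dnajc10, which changed most under tunicamycin and in PiZ. RefSeq windows (GRCm38.p6) from 250 bases before to 50 after each start were matched for all 10 genes, 13 windows in all, since Txndc5 and Txndc11 have several. The ER stress response element (ERSE, CCAAT and CCACG separated by 9 bases), a pairing of sites known to bind NF-Y and ATF6, was found in the windows of Pdia6 and Ero1lb, 2 of the 10 genes, and in 0.119% of all 32851 windows. The sequences below run 5′ to 3′ along each gene from base -250 to base -51, with the ERSE in capitals. The first is chr12:17266339-17266538 (plus), the second chr13:12565633-12565832 (plus), the third chr6:47813563-47813762 (minus) and the fourth chr2:80315216-80315415 (plus).
Pdia6: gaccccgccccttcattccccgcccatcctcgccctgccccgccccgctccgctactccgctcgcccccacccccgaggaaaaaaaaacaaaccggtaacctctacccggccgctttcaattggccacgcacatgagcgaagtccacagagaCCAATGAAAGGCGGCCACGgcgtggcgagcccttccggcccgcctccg
Ero1lb: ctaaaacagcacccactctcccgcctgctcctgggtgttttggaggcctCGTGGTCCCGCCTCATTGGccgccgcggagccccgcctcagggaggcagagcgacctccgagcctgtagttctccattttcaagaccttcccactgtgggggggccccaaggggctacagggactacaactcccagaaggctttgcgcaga
Pdia4: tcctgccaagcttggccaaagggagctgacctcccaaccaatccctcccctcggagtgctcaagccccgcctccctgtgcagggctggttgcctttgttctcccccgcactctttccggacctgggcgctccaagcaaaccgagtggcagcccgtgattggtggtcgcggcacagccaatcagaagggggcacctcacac
Dnajc10: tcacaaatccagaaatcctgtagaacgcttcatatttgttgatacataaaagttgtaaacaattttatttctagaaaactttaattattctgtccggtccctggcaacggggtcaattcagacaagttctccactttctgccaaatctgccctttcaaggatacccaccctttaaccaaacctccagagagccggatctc

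The Pdia6 element lay at bases -98 to -80, and the Ero1lb element lay on the opposite strand at -201 to -183. Pdia4, which had the highest tunicamycin change of the 10 genes, had CCAAT 3 times in its window, counting both strands, and CCACG once, without the 9-base spacing. The Dnajc10 window held none of the 8 motifs searched. The XBP1 site UPRE (TGACGTGG) was found in 1 window each of Txndc11 (-102 to -95) and Txndc5 (-138 to -131), against 0.676% of windows. An NF-kB site was found in Ero1l (-201 to -192) and Ero1lb (-103 to -94), against 8.46% of windows, and the ATF4 site (TGATGNAAN) in 1 window of Txndc5, against 3.95%. ERSE-II (ATTGG and CCACG 1 base apart, 0.0365% of windows) matched 0 of the 10 genes. The short motifs were common: CCACG was in 8 genes (32.8% of windows), CCAAT in 6 (37.4%) and the HIF core ACGTG in 6 (19.6%). ERSE contains CCAAT and CCACG, and UPRE contains ACGTG and the reverse complement of CCACG. All motifs were searched on both strands, a match is a description and not a bound site, and the count is per gene while the background is per window.

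In WT liver given PBS the enzymes spanned a wide range of levels. Per kilobase of annotated exon, P4hb, the classical disulfide isomerase and a subunit of prolyl hydroxylase and of microsomal triglyceride transfer protein, stood highest at a mean level of 8.99 log2 CPM per kb. Pdia3 (6.76), the isomerase that works with calnexin and calreticulin on glycoproteins, was next, and its library values overlapped those of Pdia4 (6.38). Pdia4 overlapped Pdia6 (5.85), and Pdia6 overlapped Txndc5 (5.56). Pdia5 (4.31) and Ero1lb (3.01) were each separate from their neighbours. Dnajc10 (2.07), Txndc11 (1.75) and Ero1l (1.46) were lowest and overlapped in sequence. In PiZ, Dnajc10 stood sixth of the 10 at 4.22 log2 CPM per kb, overlapping Ero1lb (4.20), which in turn overlapped Pdia5 (3.99). After tunicamycin, Pdia4 (10.3) stood second behind P4hb (11.5) and did not overlap Pdia6 (9.24) below it, whereas in DMSO liver it stood in the third place at 6.87 and overlapped both its neighbours.

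**Figure D1:**
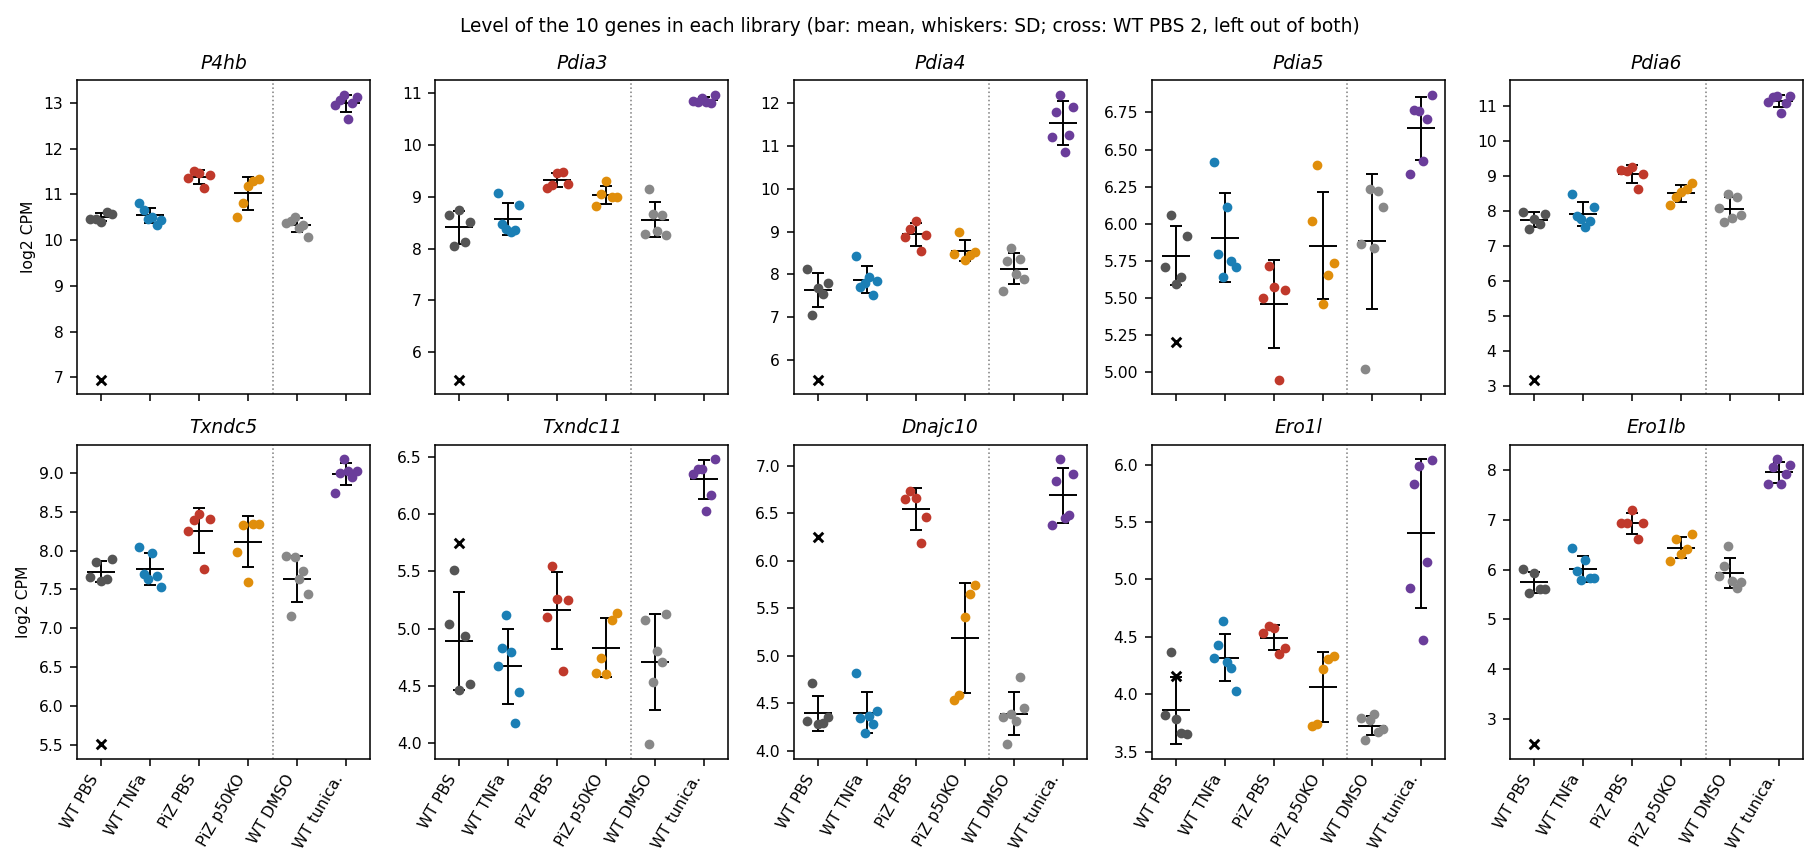
Level of each of the 10 genes (log2 CPM, y axis, own scale per gene) in every library, by group, with the mean as a bar and the SD as whiskers; the dotted line separates the tables and the cross is WT PBS 2, left out of mean and SD. Dnajc10 lies between 6.19 and 6.74 in PiZ and between 4.28 and 4.71 in the 5 WT PBS libraries, and all 10 genes lie higher after tunicamycin than in every DMSO library.

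PiZ against WT, both with PBS, asks what the chronic presence of the Z protein does to these enzymes in the liver. Of the 10 genes, 8 rose in PiZ and 2, Pdia5 and Txndc11, did not pass the test in either direction. Dnajc10, also called ERdj5, a reductase and J protein that works with the chaperone BiP in opening disulfides of degradation clients, changed most at 4.44-fold. The background is high: 45.6% of all 13285 tested genes were called higher and 6.19% lower, and the median log2 fold change of all genes was 0.40 against 0.89 for the 10. All tests are limma's moderated test, two-sided, adjusted by Benjamini-Hochberg over all tested genes at 0.05, and ± after a fold change is its standard error.

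Dnajc10 read 4.31, 4.71, 4.28, 4.29 and 4.35 log2 CPM in WT PBS 1, 3, 4, 5 and 6. In PiZ 1 to 5 it read 6.65, 6.74, 6.66, 6.19 and 6.46. The groups were well apart and did not overlap, and the log2 fold change was 2.15 ± 0.20 (adjusted p = 7.77e-08, limma). Pdia6, an isomerase that associates with BiP and with the sensor IRE1, read 7.98, 7.48, 7.79, 7.62 and 7.92 in WT and 9.16, 9.15, 9.27, 8.63 and 9.06 in PiZ. Every PiZ library was above every WT library, and the log2 fold change was 1.30 ± 0.16 (adjusted p = 2.3e-06, limma). Pdia4, also called ERp72, read 8.13, 7.05, 7.68, 7.55 and 7.81 in WT and 8.88, 9.07, 9.25, 8.55 and 8.91 in PiZ. It too was separate, with a log2 fold change of 1.29 ± 0.19 (adjusted p = 1.01e-05, limma).

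The oxidases both rose. Ero1lb, the isoform abundant in secretory tissue, read 6.02, 5.54, 5.94, 5.60 and 5.61 in WT and 6.95, 6.94, 7.19, 6.62 and 6.95 in PiZ, which did not overlap (log2 fold change 1.19 ± 0.14, adjusted p = 1.39e-06, limma). Ero1l, the isoform also known as a hypoxia target, read 3.82, 4.37, 3.79, 3.66 and 3.66 in WT and 4.53, 4.59, 4.58, 4.35 and 4.41 in PiZ. Here WT PBS 3 lay just above the lowest PiZ library, and the log2 fold change was 0.63 ± 0.15 (adjusted p = 0.00174, limma). P4hb (0.88 ± 0.14) and Pdia3 (0.91 ± 0.15) rose without overlap between groups, and Txndc5 (0.53 ± 0.15, adjusted p = 0.00672, limma) rose with overlap.

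Pdia5 was the only one of the 10 with a lower mean in PiZ. It read 5.71, 6.06, 5.60, 5.64 and 5.91 in WT and 5.50, 5.71, 5.58, 4.95 and 5.55 in PiZ, with a log2 fold change of -0.33 ± 0.18 (95% interval -0.70 to 0.04, adjusted p = 0.13, limma). Pdia5 encodes an isomerase reported to act on the sensor ATF6. Txndc11, a membrane-bound thioredoxin-like protein that binds the EDEM mannosidases, gave 0.27 ± 0.21 (adjusted p = 0.286, limma). For 6 of the 10 genes the PiZ and WT libraries did not overlap, which 35.7% of all tested genes also showed.

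Since the deposited values put the median gene 0.40 higher in PiZ, the same test was run after shifting the libraries to one median. Then 5 of the 10 stayed higher, P4hb, Pdia4, Pdia6, Dnajc10 (1.66) and Ero1lb, against 17.4% of all genes. Pdia5 was then called lower (-0.82, adjusted p = 0.000125, limma), against 22.5% of all genes. Pdia3 (0.42), Txndc5 (0.04), Ero1l (0.14) and Txndc11 (-0.22) did not pass on that scale. After quantile normalization 7 were higher, against 18.4% of all genes, since Pdia3 (0.94, adjusted p = 0.000181, limma) and Txndc5 (0.48, adjusted p = 0.00256) passed as well, and Pdia5 (-0.66) was again lower, against 20.8%. With WT PBS 2 included, 8 of the 10 were called higher, against 15.1% of all genes.

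**Figure D2:**
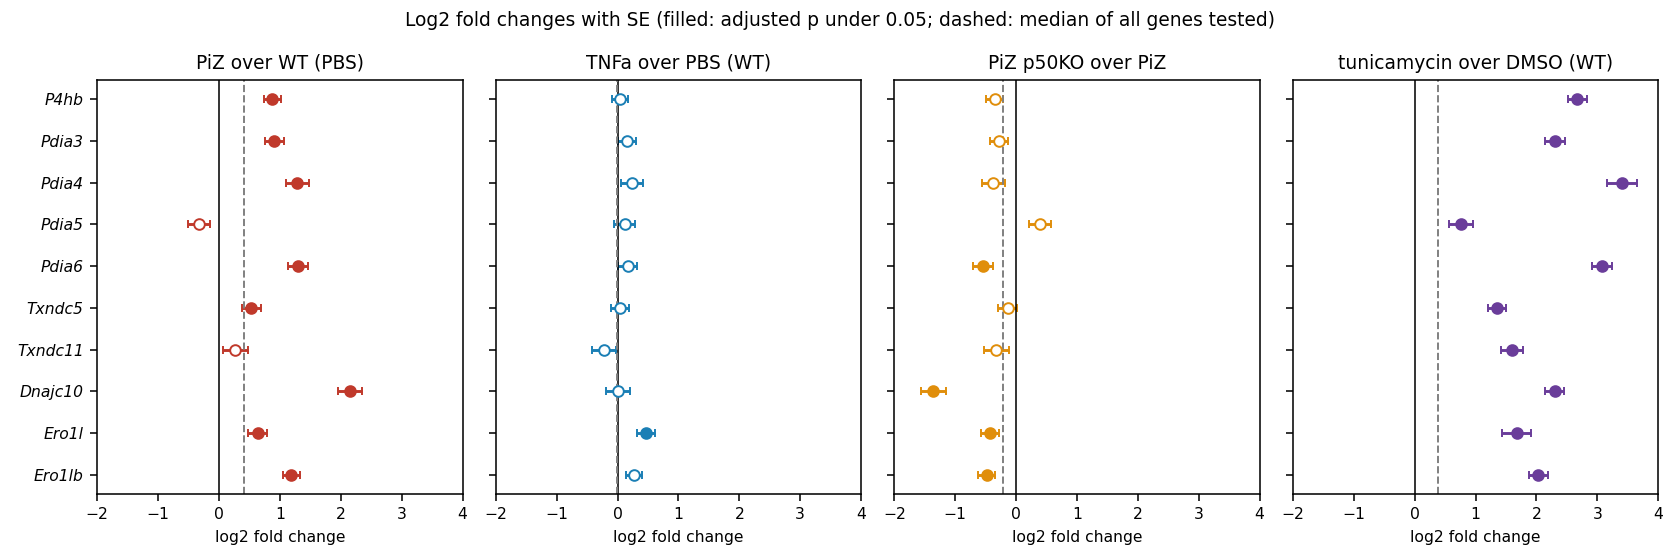
Log2 fold changes (x axis) of the 10 genes with their standard errors in the 4 comparisons the series names; filled points passed the adjusted threshold and the dashed line is the median of all tested genes. In PiZ the 10 genes run from -0.33 to 2.15, under TNFa from -0.22 to 0.46, in PiZ p50-KO over PiZ from -1.36 to 0.40 and under tunicamycin from 0.76 to 3.40.

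Markers of other cell types moved with PiZ. Summed over 8 Kupffer cell and macrophage markers the level was 177 to 232 CPM in WT PBS and 697 to 995 in PiZ, and 8 of 8 rose. Summed over 7 stellate cell and fibroblast markers it was 117 to 138 CPM against 587 to 940, and 7 of 7 rose. Cholangiocyte markers summed to 23.3 to 26.9 CPM against 82.4 to 124 (4 of 5 rose), and 4 of 7 hepatocyte markers fell. Endothelial markers summed to 168 to 220 CPM in WT PBS and 238 to 310 in PiZ (5 of 6 rose, and 0 on the shifted scale). For plasma cells, whose ER is rich in these enzymes, the 7 markers summed to 412 to 550 CPM in WT PBS and 426 to 613 in PiZ. Up to 2 of them were at 0 in a library, and of the 3 that could be tested, Jchain alone rose (2.12 ± 0.46). The 7 include Xbp1, also listed here as an ER stress target, so their sum does not measure plasma cells alone. The part of all these markers in the changes of the 10 genes was not tested. In bulk liver, fewer cells of a type and less RNA per cell cannot be told apart.

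TNFa for 2 hours against PBS in WT asks whether the acute cytokine response reaches these enzymes. Ero1l was the 1 gene of the 10 that passed, at 1.38-fold, and the median of the 10 was 0.14 against -0.02 for all genes. With 1 library left out that median ran from 0.0329 (without WT TNFa 1) to 0.18, and it was also over 1.5 times lower without WT PBS 3 or 5. Across all genes 7.63% were called higher and 4.05% lower. Ero1l ranged from 4.03 to 4.64 with a median of 4.30 log2 CPM in the 6 TNFa libraries and read 3.66 to 4.37 in the 5 PBS libraries, so the groups overlapped (log2 fold change 0.46 ± 0.15, adjusted p = 0.0441, limma). The call was lost on the shifted scale (adjusted p = 0.056, limma) and when only these groups were fitted (adjusted p = 0.0581, limma). It was also lost in 8 of the 11 fits that left out 1 library. Without WT PBS 3, WT TNFa 4 or WT TNFa 6 it was kept. With WT PBS 2, 0 of the 10 passed in limma and 1 had an unadjusted p under 0.05. All genes called higher made up 2.18% in that fit.

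The other 9 genes gave log2 fold changes from -0.22 (Txndc11) to 0.27 (Ero1lb). Dnajc10 gave 0.01 ± 0.19, with a 95% interval from -0.39 to 0.41. Its TNFa libraries ran from 4.19 to 4.82 around a median of 4.35, and they overlapped the PBS libraries. P4hb gave 0.04 (interval -0.24 to 0.31). For groups that did not overlap the background was 5.25% of all genes, and none of the 10 was among them. Nfkb1 itself rose by 2.24 ± 0.33 in the same comparison. Neutrophil markers summed to 2.22 to 21.0 CPM with PBS and 7.82 to 104 with TNFa, and 3 of the 4 tested rose. The 7 markers listed for plasma cells summed to 412 to 550 CPM with PBS and 632 to 770 with TNFa without overlap. Of the 3 tested Xbp1 alone rose, which is also on the list of ER chaperones and stress targets. Mzb1 or Tnfrsf17 was at 0 in every one of these libraries, so the sum does not measure plasma cells alone. Macrophage markers summed to 246 to 359 CPM with TNFa against 177 to 232 (2 of 8 rose). Cholangiocyte markers summed to 27.8 to 49.5 CPM with TNFa against 23.3 to 26.9 (2 of 5 rose). Erythroid markers summed to 682 to 904 CPM against 437 to 634 (1 of 3 rose). The part of these markers in the Ero1l result was not tested.

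Compared directly, PiZ with PBS against WT with TNFa gave 8 genes higher and Pdia5 lower, with 47.7% of all genes higher and 8.11% lower. Dnajc10 was higher in PiZ by 2.14 ± 0.19 (adjusted p = 3.45e-08, limma). Pdia5 was lower by the same test (-0.45 ± 0.17, adjusted p = 0.0312), and Ero1l did not pass (0.17 ± 0.15, interval -0.13 to 0.48, adjusted p = 0.326). The Pdia5 call was lost without WT TNFa 4 (adjusted p = 0.0608, limma), WT TNFa 1 or PiZ 4. Txndc11 (0.49 ± 0.20, adjusted p = 0.04, limma) was lost in 7 of the 11 fits that left out 1 library. Of the 10 genes 6 did not overlap, against 34% of all. On the shifted scale 5 were higher (20.7% of genes) and Pdia5 lower (22.8%), and after quantile normalization 7 were higher and Pdia5 lower, against 21.3% of all genes in each direction. With WT PBS 2 in the fit, Pdia4 and Dnajc10 were called higher, against 22.2% of all genes.

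PiZ p50-KO against PiZ asks which of the PiZ changes differ when p50 is labelled absent. Of the 10 genes 4 fell, Dnajc10, Pdia6, Ero1lb and Ero1l, against 21.6% of all genes called lower and 3.36% higher. The median of the 10 was -0.36 against -0.22 for all genes. Dnajc10 changed most, to 0.39 of its PiZ level on the linear scale. Pdia5 had the only positive change (0.40 ± 0.18, adjusted p = 0.111, limma).

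Dnajc10 read 4.53, 4.59, 5.41, 5.64 and 5.75 in the libraries labelled PiZ p50-KO 1 to 5. All 5 lay below the lowest PiZ library (6.19), and the log2 fold change was -1.36 ± 0.20 (adjusted p = 8.92e-05, limma). Libraries 1 and 2 lay inside the WT PBS range only through WT PBS 3 (4.71) and lay above the other WT PBS libraries (4.28 to 4.35). Libraries 3 to 5 lay between WT and PiZ. Without libraries 1 and 2 the log2 fold change of Dnajc10 was -0.94 (adjusted p = 0.00048, limma), and on the shifted scale without them it was -0.68 (adjusted p = 0.000597). It was called lower in all 10 fits that left out 1 library of either group.

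The other calls were each lost in some of those fits. Pdia6 read 8.19, 8.39, 8.53, 8.64 and 8.81 in the libraries labelled PiZ p50-KO 1 to 5, of which the last 2 lay above PiZ 4 (8.63), and gave -0.54 ± 0.16 (adjusted p = 0.0197, limma). Ero1lb read 6.17, 6.61, 6.31, 6.42 and 6.72, of which the last lay above PiZ 4 (6.62), and gave -0.48 ± 0.14 (adjusted p = 0.0176, limma). Ero1l read 3.72, 3.74, 4.22, 4.31 and 4.34, all below the lowest PiZ library (4.35), from which libraries 1 and 2 lay far and libraries 4 and 5 little apart, and gave -0.43 ± 0.15 (adjusted p = 0.0456, limma). Without libraries 1 and 2, Dnajc10 was the 1 gene of the 10 still called lower, against 9.62% of all genes. Leaving out only the library labelled PiZ p50-KO 1, or only PiZ 3, also left Dnajc10 alone, and Ero1l was lost in 6 of those 10 fits (adjusted p from 0.0284 to 0.142).

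On the shifted scale Dnajc10 was the 1 gene called lower (-1.10, 9.11% of all genes), and Pdia5 was called higher (0.66, adjusted p = 0.00326, limma; 9.84% of genes). After quantile normalization 4 were lower, P4hb (-0.54), Pdia6 (-0.57), Dnajc10 (-1.24) and Ero1lb (-0.37), against 10.4% of genes, and Pdia5 was higher (0.58), against 9.48%. The rescalings therefore differed in P4hb, Pdia6 and Ero1lb. Without the libraries labelled PiZ p50-KO 1 and 2 the shifted Pdia5 value was 0.42 (adjusted p = 0.0635, limma). With WT PBS 2 in the fit Dnajc10 alone was lower, against 2.96% of genes. Dnajc10 and Ero1l, 2 of the 10, had groups without overlap, as did 13.5% of all genes. Markers moved here as well. Macrophage markers summed to 285 to 560 CPM in PiZ p50-KO (8 of 8 fell against PiZ). Stellate markers summed to 169 to 373 (6 of 7 fell) and cholangiocyte markers to 28.4 to 73.6 (3 of 5 fell). Of 7 hepatocyte markers 3 rose, against 3.36% of all genes called higher. On the shifted scale 5 of these 7 were higher, and after quantile normalization 0. The part of all these markers was not tested.

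**Figure D3:**
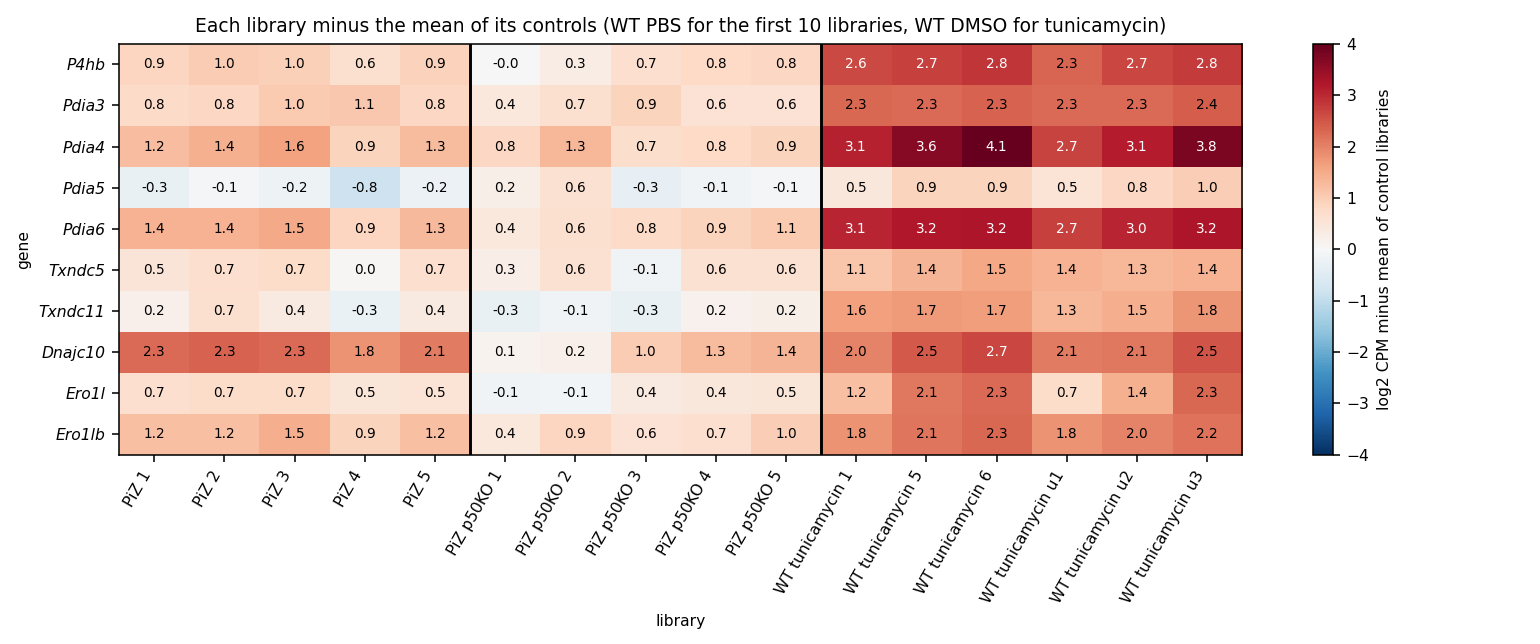
Log2 CPM of each gene (rows) in each PiZ, PiZ p50-KO and tunicamycin library (columns) minus the mean of its control libraries, which are WT PBS without library 2 for the first 10 columns and WT DMSO for the last 6; u1 to u3 are tunicamycin libraries whose number could not be matched. Dnajc10 is 1.80 to 2.35 above WT in PiZ, 0.14 and 0.20 in the libraries labelled PiZ p50-KO 1 and 2, and 1.02 to 1.36 in PiZ p50-KO 3 to 5.

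Against WT with PBS, which shares its controls with the PiZ comparison, PiZ p50-KO had 6 genes higher, against 10.5% of all genes higher and 1.14% lower. These were Pdia4 (0.91 ± 0.19), Dnajc10 (0.79 ± 0.20), Pdia6 (0.76 ± 0.16), Ero1lb (0.70 ± 0.14), Pdia3 (0.63 ± 0.15) and P4hb (0.52 ± 0.14), with adjusted p between 0.00622 and 0.0213 (limma). Dnajc10 was lost without PiZ p50-KO 4 or 5, and P4hb without either of these or WT PBS 4. Pdia5 gave 0.07 ± 0.18 and Txndc11 -0.06 ± 0.21. Pdia3, Pdia4, Pdia6 and Ero1lb did not overlap with WT, 4 of the 10 against 6.64% of all genes. After the shift 3 were called, Pdia4, Pdia6 and Ero1lb, against 3.2% of all genes, and after quantile normalization these and P4hb and Pdia3, 5 in all, against 2.25%. Without the libraries labelled PiZ p50-KO 1 and 2, 6 were called, against 15.5%, and Dnajc10 then gave 1.21 (adjusted p = 1.5e-05, limma). With WT PBS 2, 0 of the 10 passed in limma and 6 had an unadjusted p under 0.05, against 0.0817% of all genes called higher.

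Tunicamycin for 24 hours against DMSO in WT asks how the enzymes answer a block of N-glycosylation. All 10 genes rose, and for all 10 every treated library lay above every DMSO library, against 33.3% of all genes with groups that did not overlap. The background was again high, with 45.3% of 13388 tested genes higher and 13.5% lower. The median of the 10 was 2.17 and that of all genes 0.38. The changes were graded from 1.70-fold for Pdia5 to 10.6-fold for Pdia4.

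Pdia4 ran from 7.61 to 8.62 with a median of 8.16 log2 CPM in DMSO and from 10.9 to 12.2 with a median of 11.5 after tunicamycin. Its log2 fold change was 3.40 ± 0.24 (adjusted p = 6e-07, limma). Pdia6 ran from 7.70 to 8.49 (median 7.99) and from 10.8 to 11.3 (median 11.2), a change of 3.08 ± 0.17 (adjusted p = 6.46e-08, limma). P4hb, already the most abundant, changed by 2.67 ± 0.16 and Pdia3 by 2.31 ± 0.16.

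Dnajc10 ran from 4.07 to 4.77 (median 4.37) in DMSO and from 6.37 to 7.07 (median 6.66) after tunicamycin, a change of 2.30 ± 0.16 (adjusted p = 3.68e-07, limma). Ero1lb changed by 2.03 ± 0.16, Txndc11 by 1.60 ± 0.18 and Txndc5 by 1.35 ± 0.15. Ero1l was tight in DMSO (3.60 to 3.83) and spread in the treated livers, where 3 libraries read 4.47, 4.93 and 5.15 and 3 read 5.83, 5.99 and 6.04. Its mean change was 1.67 ± 0.24 (adjusted p = 0.000105, limma). The same 3 high libraries were also the 3 highest for Pdia4 (11.8, 11.9 and 12.2) and for Dnajc10 (6.84, 6.92 and 7.07). They were also the 3 highest for P4hb, Pdia5, Pdia6, Txndc11 and Ero1lb, but not for Pdia3 and Txndc5. On the first principal component of all tested genes in batch2 they stood at 87.2, 92.2 and 106, and the other tunicamycin libraries at 5.59 to 50.5.

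Pdia5 changed least. It ran from 5.02 to 6.23 (median 5.99) in DMSO and from 6.34 to 6.87 (median 6.73) after tunicamycin, a change of 0.76 ± 0.20 (adjusted p = 0.00455, limma). After the shift 9 genes were called higher, against 24.1% of all genes, and Pdia5 was not (0.31, adjusted p = 0.069, limma). Quantile normalization also gave 9, against 26.4%, without Pdia5 (0.33). Leaving out any 1 of the 12 libraries left all 10 called. Hepatocyte markers summed to 79768 to 109422 CPM in DMSO and 24743 to 63811 after tunicamycin (4 of 7 fell, 1 rose), and 4 of 8 macrophage markers fell; their part was not tested.

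The PiZ and tunicamycin comparisons share no libraries, and their values can be set side by side. Dnajc10 changed by 2.15 ± 0.20 in PiZ and by 2.30 ± 0.16 under tunicamycin. For the other 9 genes the tunicamycin value was higher by more: Pdia4 gave 1.29 and 3.40, Pdia6 1.30 and 3.08, P4hb 0.88 and 2.67, and Pdia3 0.91 and 2.31. Ero1lb gave 1.19 and 2.03, Ero1l 0.63 and 1.67, Txndc5 0.53 and 1.35, Txndc11 0.27 and 1.60, and Pdia5 -0.33 and 0.76. The order therefore differed, with Dnajc10 in the first place in PiZ and in the fifth under tunicamycin. Just above it under tunicamycin, Pdia3 (2.31 ± 0.16) differed from it by less than either standard error, so their order there was not resolved. Tables, batches and vehicles differ, and the differences between the comparisons were not tested.

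**Figure D4:**
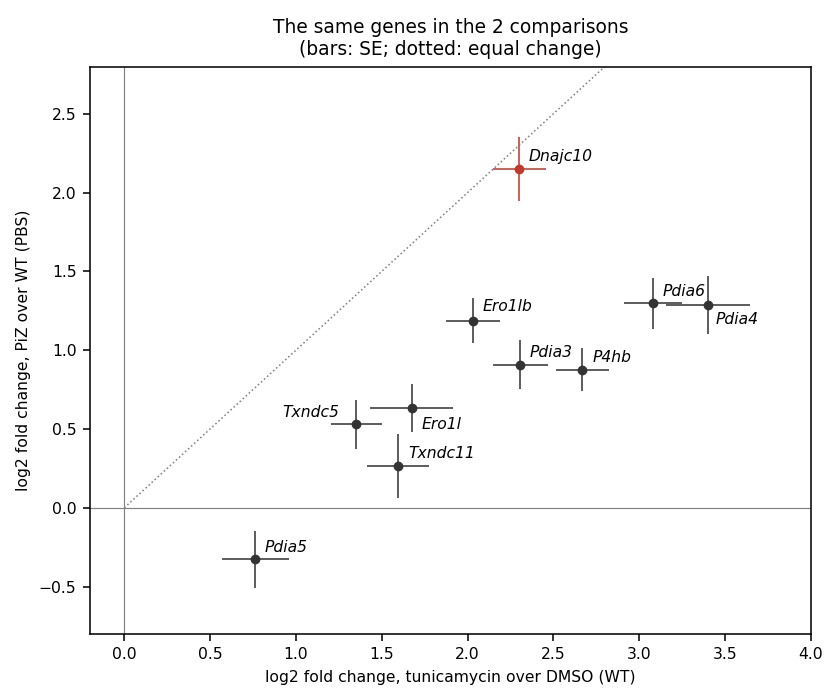
Log2 fold change of each of the 10 genes under tunicamycin (x axis) and in PiZ (y axis), with standard errors as bars and a dotted line of equal change. Dnajc10 (2.30 and 2.15, red) lies nearest the line, and the other 9 lie further below it.

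Other genes of the same pathways, listed for comparison and without the 10, moved as follows in PiZ. A list of PDI-family genes and genes set beside them had 12 tested, of which 7 rose (median 0.40). Its greatest changes were in Nxn (1.89 ± 0.28), a thioredoxin-like oxidoreductase known from cytosol and nucleus and not an ER isomerase, and Erp29 (1.06 ± 0.14), an ER folding factor without the active cysteine pair. A list of ER thiol enzymes and genes set beside them, such as Gfer and Sil1, had 16 tested. Of these 14 rose and 1 fell (median 0.73), led by the ER peroxidases Gpx8 (2.22 ± 0.45) and Gpx7 (2.06 ± 0.40). Of 14 partners of the 10 enzymes, 11 rose (median 0.83), led by Tapbp (1.46 ± 0.19), the tapasin that pairs with Pdia3 in antigen loading, and Hspa5 (1.27 ± 0.22), which encodes BiP. Of 25 ER chaperones and stress targets, 19 rose (median 0.80), led by Derl3 (4.92 ± 0.64) and Fkbp11 (2.12 ± 0.34). Of 15 ATF4 and CHOP targets, 10 rose (median 1.59), led by the cystine transporter gene Slc7a11 (6.40 ± 0.89) and Asns (4.99 ± 0.85). On the shifted scale the counts higher and lower were 3 and 3 for the PDI-family list, 6 and 1 for the thiol enzymes, 6 and 1 for the partners, 10 and 1 for the chaperones and 6 and 1 for the ATF4 and CHOP targets, so the PDI-family list had no common direction on that scale. After quantile normalization they were 3 and 2, 9 and 1, 11 and 0, 17 and 1, and 6 and 0 in the same order. All genes called higher made up 45.6% as deposited, 17.4% after the shift and 18.4% after quantile normalization.

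Under tunicamycin 24 of the 25 chaperone-list genes rose with a median of 2.72, led by Derl3 (7.55 ± 0.47) and Fkbp11 (5.62 ± 0.33). All 13 tested ATF4 and CHOP targets rose (median 4.01), led by Atf3 (9.50 ± 0.76) and Nupr1 (8.02 ± 0.44). Of 14 partners 12 rose and 1 fell, led by Hspa5 (3.90 ± 0.30) and Sel1l (2.72 ± 0.24), a subunit of the degradation ligase. The thiol enzymes had 10 of 14 higher and 1 lower (median 0.89), led by Selenos (2.58 ± 0.23) and Selenok (2.15 ± 0.31). The PDI-family list had 5 higher and 3 lower of 12 (median 0.26), against 45.3% and 13.5% of all genes. Only its count of higher genes is near the share of all genes. Its greatest changes were in P3h1 (2.79 ± 0.40), a collagen prolyl hydroxylase and no disulfide isomerase, and Erp29 (2.49 ± 0.17). On the shifted scale the chaperones had 22 higher, the ATF4 and CHOP targets 13, the partners 10, the thiol enzymes 7 and the PDI-family list 4 higher and 4 lower, against 24.1% of all genes higher and 29.2% lower. The counts higher were the same after quantile normalization, against 26.4% higher and 26.5% lower.

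In PiZ p50-KO against PiZ, 8 of the 12 genes of the PDI-family list fell and 1 rose, 9 of 16 thiol enzymes fell, 5 of 14 partners fell, 6 of 25 chaperones fell and 9 of 15 ATF4 and CHOP targets fell, against 21.6% of all genes, so the chaperone count is near that share. Leading genes were Nxn (-1.60 ± 0.28), Gpx7 (-1.70 ± 0.40), Tapbp (-0.93 ± 0.19), Fkbp11 (-1.17 ± 0.34) and Slc7a11 (-3.43 ± 0.89). On the shifted scale those counts of lower genes were 2, 6, 1, 2 and 7, against 9.11% of all genes, and those of the partners and chaperones are near it. After quantile normalization they were 2, 7, 3, 4 and 8, against 10.4%. All these counts include the libraries labelled PiZ p50-KO 1 and 2, and the lists were not counted without them. Leaving them out lowered the share of all genes called lower from 21.6% to 9.62% as deposited. Under TNFa 7.63% of all genes were called higher and 4.05% lower. Near that share, 2 of the 25 chaperone-list genes rose, Xbp1 (1.19 ± 0.21) and Hyou1 (0.94 ± 0.30). Of the 15 ATF4 and CHOP targets, Slc7a11 rose (4.03 ± 0.85) and Sesn2 fell (-1.16 ± 0.37), also near those shares. In the PDI-family list, the thiol enzymes and the partners limma called 0 genes under TNFa. An unadjusted p under 0.05 was found for 3 genes of the PDI-family list and 1 thiol enzyme, all lower. The same held for 4 partners, all higher. Among 10 tested hypoxia targets, listed because Ero1l is one, Hk2 (2.18 ± 0.38) and Adm (1.22 ± 0.29) rose under TNFa. In PiZ 5 of these 10 rose, near the 45.6% of all genes called higher, and 2 fell, against 6.19%. The leading genes were Hk2 (2.44 ± 0.40) and Ndrg1 (1.64 ± 0.24). On the shifted scale 4 were higher and 3 lower, against 17.4% and 22.5% of all genes. After quantile normalization they were 4 and 2, against 18.4% and 20.8%.

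Genes outside the 10 whose changes were most like theirs were ranked by the root mean square difference of their 4 log2 fold changes from the medians of the 10, over 12547 genes tested in both tables. The nearest were Uso1 (0.067), a vesicle tether of ER to Golgi transport, the pseudogene Rps15a-ps5 (0.076), Nars (0.078), an asparaginyl-tRNA synthetase, Atf6 (0.084), and Nktr (0.087). Reads of Rps15a-ps5 may be shared with Rps15a and are uncertain. Uso1 changed by 0.91 in PiZ, 0.15 under TNFa, -0.25 in PiZ p50-KO over PiZ and 2.10 under tunicamycin. Among the 10 themselves Pdia3 lay nearest the medians (0.083), while Dnajc10 (0.81) and Pdia5 (1.00) lay furthest.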

How the data were processed

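RNA-seq of 34 mouse livers was analysed from 2 tables, one per batch, whose values are log2 CPM with a prior count, deposited by the authors. Per the submitters' processing notes STAR and featureCounts were used; versions and strand setting are not given in the sources used here. No further scaling between libraries was seen in the values, and whole reads per library were recovered from them to give depth (34.3 to 54.0 M reads; WT PBS 2, 10.2 M). The number of libraries and their spread limit precision, since the fewest reads of any of the 10 genes were 435 outside WT PBS 2.

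Each table was fitted over all its groups with limma 3.58.1 in R 4.3.3 (moderated test with a mean trend, two-sided, Benjamini-Hochberg over all genes tested, 0.05). Genes above 1 CPM in at least 5 (first table) or 6 libraries (second) were tested: 13285 and 13388. WT PBS 2 was left out. The script was tested on simulated data. Alternatives changed scaling (a shift of each library to one median, or quantile normalization), filter, pseudocount, moderation, groups fitted, libraries and a replicate block. For 3 tunicamycin libraries only the group could be matched.

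The members and gene lists were chosen with earlier results of these data known. All 10 members are named, then from each list the 2 other genes with the greatest change among those that passed. Also named are the 5 genes nearest the members' changes, and markers of some cell types, mainly where a group or library stood apart. Jchain, Sesn2 and the TNFa gene Slc7a11 were named after their values were seen.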

Additional observations from a re-analysis of the deposited data

Results flagged for a closer look

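Over 60 sets of values (10 genes in 6 groups, WT PBS without library 2), 5 had 1 library further from the rest than Dixon's 95% limit; chance gives about 1 set in 20. Pdia5 was lowest in PiZ 4 at 4.95 log2 CPM (other PiZ 5.50 to 5.71) and in WT DMSO 2 at 5.02 (others 5.84 to 6.23). PiZ 4 was the lowest PiZ library for all of the 10 genes but Pdia3. It also had the lowest depth in PiZ (35.5 M reads) and stood lowest of PiZ on the first principal component (67.4, others 78.7 to 94.3). Dnajc10 was highest in WT PBS 3 at 4.71 (others 4.28 to 4.35) and in WT TNFa 1 at 4.82 (others 4.19 to 4.41). Ero1l was highest in WT PBS 3 at 4.37 (others 3.66 to 3.82), the library that closes the gap to PiZ.

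Among all 6 WT PBS libraries, WT PBS 2 stood beyond the same limit for 6 genes. P4hb read 6.94 there (others 10.4 to 10.6), Pdia3 5.47 (8.04 to 8.74), Pdia6 3.19 (7.48 to 7.98), Txndc5 5.50 (7.61 to 7.90) and Ero1lb 2.48 (5.54 to 6.02), all lowest, while Dnajc10 read 6.25 and was highest (4.28 to 4.71).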

How the results depend on the processing

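Below, PiZ, TNFa and tunicamycin mean each group against its control, and the direct comparison is PiZ against WT with TNFa. Values are log2 fold changes unless they are counts, and the cause of the changes was not tested. With WT PBS 2 included, all genes called numbered 2336 (PiZ), 547 (TNFa), 468 (PiZ p50-KO against PiZ), 12 (PiZ p50-KO against WT) and 3406 (direct). The members called were then 0 for TNFa, 1 for PiZ p50-KO against PiZ, 0 for PiZ p50-KO against WT and 2 for the direct comparison, the members' medians were 1.43 (PiZ), 0.50 (TNFa) and 0.94 (PiZ p50-KO against WT), and Dnajc10 under TNFa was -0.30.

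After the shift to one median, members called were 0 for TNFa, 2 for PiZ p50-KO against PiZ and 3 for PiZ p50-KO against WT (1000 genes called), and medians were 0.40 (PiZ), -0.11 (PiZ p50-KO against PiZ), 1.72 (tunicamycin), 0.34 (PiZ p50-KO against WT) and 0.36 (direct). Signs turned for Txndc11 in PiZ (-0.22), P4hb (-0.0235), Txndc5 (-0.027) and Dnajc10 (-0.0523) under TNFa, Txndc5 in PiZ p50-KO against PiZ (0.12), Pdia5 (-0.16) and Ero1l (-0.0239) in PiZ p50-KO against WT, and Ero1l in the direct comparison (-0.255). Quantile normalization gave 0 members under TNFa, a tunicamycin median of 1.75 and 595 genes for PiZ p50-KO against WT. It turned Txndc11 in PiZ (-0.11), P4hb (-0.0063), Txndc5 (-0.0203) and Dnajc10 (-0.0836) under TNFa, Pdia5 (-0.0809) and Ero1l (-0.0123) in PiZ p50-KO against WT, and Ero1l in the direct comparison (-0.14).

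Without a filter, 0 members were called for TNFa and 819 genes for PiZ p50-KO against WT. Fitting only the 2 groups compared gave 0 members for TNFa, 2180 genes for PiZ p50-KO against PiZ, and 3 members and 225 genes for PiZ p50-KO against WT. Beside each count of 0 for TNFa by limma under these settings, 1 member had an unadjusted p under 0.05; for PiZ p50-KO against WT with WT PBS 2 it was 6. Without WT TNFa 4, Txndc5 under TNFa was -0.0079. Without the libraries labelled PiZ p50-KO 1 and 2, PiZ p50-KO against PiZ had 1 member and 1479 genes called, and PiZ p50-KO against WT had 2427 genes, a median of 0.71, Pdia5 at -0.17 and Txndc11 at 0.0459. That omission together with the shift, an alternative chosen after seeing the data, left 1 member and 1175 genes called in PiZ p50-KO against PiZ with a median of 0.0397. There P4hb was 0.15, Pdia3 0.0394, Txndc5 0.0949, Txndc11 0.0401 and Ero1l 0.0536, and Pdia5 in PiZ p50-KO against WT was -0.40. Of 35 member values that turned sign, 1 (Ero1l here) was called as deposited.

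Leaving out 1 library at a time, members called ranged from 8 to 8 in PiZ, 0 to 1 for TNFa, 1 to 5 for PiZ p50-KO against PiZ, 10 to 10 for tunicamycin, 4 to 7 for PiZ p50-KO against WT and 7 to 9 in the direct comparison. Genes called ranged from 2197 (without PiZ p50-KO 1) to 3770 for PiZ p50-KO against PiZ. For PiZ p50-KO against WT they ranged from 703 (without PiZ p50-KO 4) to 2113, also falling by over 1.5 times without WT PBS 4, 5 or 6 or PiZ p50-KO 5. Signs turned, never with a call, for TNFa Dnajc10 (-0.0739 to 0.0897), P4hb (-0.0175 to 0.0787) and Txndc5 (-0.0235 to 0.0798) and for PiZ p50-KO against WT Pdia5 (-0.0672 to 0.17) and Txndc11 (-0.17 to 0.0965). Same-numbered libraries correlated from -0.233 to 0.564; not every pair was positive in any comparison and no label states a pairing, so the numbers were not used to pair libraries. The replicate block moved the genes called for PiZ p50-KO against WT to 795 and members called to 8, 1, 4, 10, 5 and 8 in the order above.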
